A study of Rattus norvegicus with 4 samples.

Results

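Blood flow along a vessel wall is sensed by the endothelium, and 6 genes of that response were followed through 4 rat liver libraries: Klf2, Klf4, Nos3, Thbd, Edn1 and S1pr1. They are 6 of the 22118 gene symbols listed and were chosen by name, with earlier results of these data known. Each was read in endothelial barcodes, defined as barcodes with at least 2 of the 3 genes Flt1, Egfl7 and Kdr and no Ptprc, the pan-leukocyte gene CD45. All livers were of the Lewis strain, and each group is 1 single-cell library. NEVLPcty is a liver that was perfused for 4 h at 37 °C and received IL-10 and TGF-β, as read from the series description. NEVLP2 is a liver perfused at the same temperature for as long without the 2 cytokines, and its digit is not explained. CS is a liver held without perfusion for 4 h at 4 °C, and naive is an untreated liver. The perfusate, per the labels, was a culture medium with Lewis red cells depleted of leukocytes, and it held albumin, heparin, the vasodilator papaverine, hydrocortisone and insulin. Perfused and cold-stored livers therefore differed in flow, temperature and medium together, and these cannot be told apart here, nor can they be told apart from the animal or the cell preparation. The age, sex and number of animals behind a library, and how cells were isolated, were not given in the sources used here. With 1 library a group there was no replicate and no test, and every interval below is a 95% limit for counting error alone.

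In textbook terms, steady laminar flow acts through the MEK5, ERK5 and MEF2 cascade to induce the zinc-finger transcription factors KLF2 and KLF4. These factors raise endothelial nitric oxide synthase (Nos3), which makes a vasodilator, and thrombomodulin (Thbd), which turns thrombin toward activating protein C. They also lower endothelin-1 (Edn1), a vasoconstrictor peptide. S1PR1, a receptor for sphingosine 1-phosphate, supports the endothelial barrier and takes part in flow sensing, while in T cells KLF2 drives S1pr1 and the receptor guides exit from tissue. Most of this is known from human and mouse cells. Liver endothelium is largely sinusoidal, a thin fenestrated lining that carries Lyve1, Stab2 and Fcgr2b and little von Willebrand factor (Vwf).

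KLF factors bind a CACCC core, so the promoters of the members downstream of KLF2 and KLF4 are shown with that core in capitals, written as GGGTG where it lies on the other strand. The sequences are from RefSeq (build GRCr8) and run from 250 bases before to 50 bases after the annotated start, written 5′ to 3′ along the gene. The table holds 4 of the 6 members, and Klf2 and Thbd are named only. All 4 genes lie on the minus strand: Klf4 at chr5:75078543-75078842, Nos3 at chr4:11706532-11706831, Edn1 at chr17:22666638-22666937 and S1pr1 at chr2:206314021-206314320.
Nos3: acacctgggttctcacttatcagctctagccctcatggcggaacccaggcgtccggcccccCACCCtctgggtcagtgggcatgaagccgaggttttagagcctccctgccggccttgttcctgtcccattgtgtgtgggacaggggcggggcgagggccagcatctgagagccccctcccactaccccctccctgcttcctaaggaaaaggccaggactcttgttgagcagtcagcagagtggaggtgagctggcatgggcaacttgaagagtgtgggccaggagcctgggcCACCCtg
Edn1: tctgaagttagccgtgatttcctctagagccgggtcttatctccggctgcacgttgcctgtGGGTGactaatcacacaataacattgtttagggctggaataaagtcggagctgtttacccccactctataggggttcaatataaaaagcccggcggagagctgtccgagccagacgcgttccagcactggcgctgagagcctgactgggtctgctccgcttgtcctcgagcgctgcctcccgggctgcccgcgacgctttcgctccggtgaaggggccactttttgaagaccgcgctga
S1pr1: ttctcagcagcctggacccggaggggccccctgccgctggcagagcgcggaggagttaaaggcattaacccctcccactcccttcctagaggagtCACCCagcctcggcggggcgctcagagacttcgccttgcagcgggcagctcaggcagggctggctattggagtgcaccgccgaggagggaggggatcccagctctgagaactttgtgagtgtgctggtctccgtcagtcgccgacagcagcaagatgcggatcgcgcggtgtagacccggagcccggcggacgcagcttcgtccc
The core occurred 2 times in the Nos3 window, at positions -189 and 44 relative to the start, and 1 time each in the Edn1 window, at -189 on the other strand, and in the S1pr1 window, at -155. It did not occur in the Klf4 window. Of 33469 promoters of the same length, 54.9% held it on either strand, so these matches are a description of the letters only. TGANTCA, a strict form of the AP-1 motif, was found in none of the 4 windows and in 7.33% of all promoters. Near matches to it were not searched, so other AP-1 sites may be present. The MEF2 motif was found in none of the 4 and in 0.565% of all. The motifs shown do not overlap.

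The deposited matrices held 11763 barcodes in NEVLPcty, 10646 in NEVLP2, 11200 in CS and 3920 in naive, with 25609611 to 72271060 UMIs (unique molecular identifiers, counts of captured transcripts). After filtering, 7628, 2574, 5056 and 48 barcodes in that order met the endothelial rule, which is 65.7, 25.3, 46.8 and 1.45% of the barcodes retained. Naive endothelium thus rests on 48 barcodes and 235354 UMIs, against 14134287 to 43217399 UMIs in the other libraries. Median UMIs per endothelial barcode were close, at 5583, 5322, 5289.5 and 4864.5. Of markers that the rule did not use, Lyve1 was detected in 95.2 to 97.9% of endothelial barcodes, Cdh5 in 77.1 to 93.2% and Fcgr2b in 83.3 to 96.7%. Other sinusoidal markers were less common and lowest in NEVLP2, with Stab2 in 36.6 to 66.7%, Stab1 in 11.1 to 31.7% and Clec4g in 6.14 to 18.8%, and Emcn, an endothelial sialomucin, was in 32.2 to 79.7%. Vwf was found in 4.43, 4.47 and 4.75% in NEVLPcty, NEVLP2 and CS and in 0 of 48 naive barcodes. Pecam1 is not among the symbols listed. Kdr, a gene of the rule itself, had 841, 611, 3154 and 4364 CPM (UMIs per 1000000 UMIs) in NEVLPcty, NEVLP2, CS and naive, and Tek, an endothelial receptor, 250, 98.3, 662 and 986 CPM. Between 11 and 35 barcode sequences were shared by any pair of libraries, and at most 9 of them were endothelial in both. Transcripts of other cells were low in endothelial barcodes, where the 11 listed hepatocyte markers, none of them at 0, summed to 0.217, 0.385, 0.292 and 0.424% of UMIs in NEVLPcty, NEVLP2, CS and naive. The 3 Cd3 genes summed to 1.30, 3.82, 2.75 and 4.25 CPM, with 2 of the 3 at 0 in naive. The 8 macrophage markers came to 202, 275, 390 and 42.5 CPM, with 4 of the 8 at 0 in naive.

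The level of a gene is given in CPM of the endothelial barcodes summed. Klf2, the factor most closely tied to laminar flow, was at 6.18 CPM in NEVLPcty (5.46 to 6.97), 3.47 in NEVLP2 (2.56 to 4.58), 116 in CS (112 to 120) and 63.7 in naive (35.7 to 105). Both perfused libraries therefore lay far below the cold-stored and the untreated liver, and none of the 4 intervals overlapped. The Klf2 level was 18.8-fold lower in NEVLPcty than in CS (16.6- to 21.4-fold) and 33.5-fold lower in NEVLP2 than in CS (25.2- to 45.3-fold). These folds rest on 267 UMIs in NEVLPcty, 49 in NEVLP2 and 3077 in CS. Against naive, Klf2 was 10.3-fold lower in NEVLPcty (5.69- to 17.3-fold) and 18.4-fold lower in NEVLP2 (9.58- to 33.3-fold), with 15 UMIs in naive. CS stood 1.82-fold above naive (1.10- to 3.26-fold).

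Klf4, which shares many targets with Klf2, had 145 CPM in NEVLPcty (141 to 149), 127 in NEVLP2 (122 to 134), 1950 in CS (1933 to 1967) and 548 in naive (458 to 651). The order of the libraries was the same as for Klf2, with no overlap of the intervals. Klf4 was 13.5-fold lower in NEVLPcty than in CS (13.1- to 13.8-fold) and 15.3-fold lower in NEVLP2 than in CS (14.6- to 16.0-fold). CS was 3.56-fold above naive (2.99- to 4.26-fold), while the perfused libraries were 3.78-fold (NEVLPcty) and 4.30-fold (NEVLP2) below naive. Among barcodes with the gene, the median was 2 UMIs in NEVLPcty, 1 in NEVLP2, 9 in CS and 4 in naive, so cold-stored endothelium differed both in how many barcodes held Klf4 and in how much each held.

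Immediate early genes were lower in the same libraries. A list of 12 immediate early genes, which many stimuli induce rapidly, was added after values had been seen, and 11 of them are listed. They summed to 1.86% of endothelial UMIs in NEVLPcty, 1.995% in NEVLP2, 4.46% in CS and 2.47% in naive, with none at 0. Of the 11, 8 were at least 2-fold lower and 1 at least 2-fold higher in NEVLPcty than in CS, and 9 and 1 in NEVLP2. Of all genes, 35.9% in NEVLPcty over CS and 44.1% in NEVLP2 over CS were at least 2-fold lower. The list's median log2 ratios were -2.06 and -2.05, against -0.51 and -0.77 for all genes. Fos, an AP-1 subunit, had 1161 CPM in NEVLPcty, 1046 in NEVLP2 and 8333 in CS. The part of this programme in the Klf2 and Klf4 values was not tested.

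Nos3 separated the perfused livers from each other. It had 393 CPM in NEVLPcty (387 to 399), 139 in NEVLP2 (133 to 145), 262 in CS (256 to 269) and 340 in naive (270 to 423). NEVLPcty and naive overlapped, and NEVLP2 was lowest. Relative to CS, Nos3 was 1.498-fold higher in NEVLPcty (1.46 to 1.54) and 1.89-fold lower in NEVLP2 (1.80- to 1.99-fold). Between the perfused libraries it was 2.83-fold higher in NEVLPcty than in NEVLP2 (2.70 to 2.97).

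Thbd was higher in both perfused livers, with 2001 CPM in NEVLPcty (1987 to 2014), 1439 in NEVLP2 (1420 to 1459), 771 in CS (761 to 782) and 931 in naive (811 to 1062). That is 2.59-fold above CS in NEVLPcty (2.55 to 2.63) and 1.87-fold above CS in NEVLP2 (1.83 to 1.90). Thbd thus lay on the opposite side of CS from Klf2 and Klf4. The naive value leans on 1 barcode that held 39.3% of the Thbd UMIs there. Without the barcodes in the top 5% of UMIs, the log2 ratio of CS over naive was 0.18, against -0.27 with all of them.

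Edn1 was sparse and uneven. It had 7.13 CPM in NEVLPcty (6.35 to 7.97), 25.4 in NEVLP2 (22.8 to 28.2) and 2.45 in CS (1.89 to 3.12), and no UMI among 235354 in naive, where 3 counts would be 12.7 CPM. NEVLP2 was thus highest. Edn1 was 2.91-fold above CS in NEVLPcty (2.22 to 3.86) and 10.4-fold above CS in NEVLP2 (7.94 to 13.7). Between the perfused livers, Edn1 was 3.56-fold lower in NEVLPcty than in NEVLP2 (3.05- to 4.16-fold), the reverse of Nos3. Only 165, 110 and 35 endothelial barcodes of NEVLPcty, NEVLP2 and CS held an Edn1 UMI.

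S1pr1 was also higher after perfusion, at 615 CPM in NEVLPcty (607 to 622), 475 in NEVLP2 (464 to 486), 208 in CS (203 to 214) and 157 in naive (111 to 217). CS and naive overlapped, and both perfused libraries lay above them. The ratio to CS was 2.96 in NEVLPcty (2.87 to 3.04) and 2.28 in NEVLP2 (2.20 to 2.37).

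**Figure D1:**
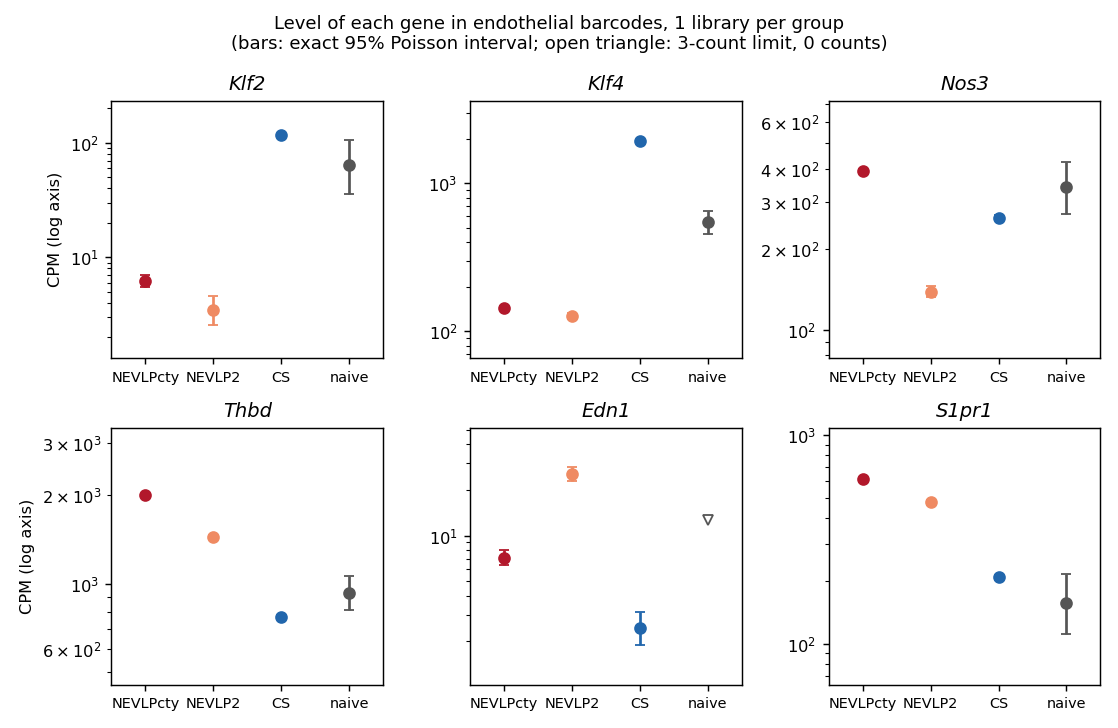
Level of the 6 genes in endothelial barcodes, in CPM on a log axis, for NEVLPcty, NEVLP2, CS and naive; points are single libraries, bars are exact 95% Poisson intervals, and the open triangle is the 3-count limit of a library with 0 counts. Klf2 and Klf4 are lowest in the perfused livers (Klf2 6.18 and 3.47 CPM, against 116 in CS), whereas Thbd, Edn1 and S1pr1 are higher in both perfused livers than in CS.

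These ratios were read against all genes of the same sums. Of the 6 members, 3 were at least 2-fold higher and 2 at least 2-fold lower in NEVLPcty than in CS, where 11% of 13287 genes were that much higher and 35.9% that much lower. In NEVLP2 over CS the counts were 2 higher and 2 lower, where 11.2% of 12903 genes were higher and 44.1% lower. In NEVLPcty over NEVLP2 it was 1 higher and 1 lower, with 14% and 6.99% of genes. In CS over naive it was 1 higher and 0 lower, with 6.99% and 10.5%. Over naive, NEVLPcty had 2 higher and 2 lower (8.34% and 29.7% of genes) and NEVLP2 had 1 higher and 3 lower (8.99% and 38.6%). Levels at least 2-fold below CS were thus common among all genes of the perfused libraries, and the members' counts of lower levels do not set them apart. Whether their counts of higher levels do so was not tested, and the members were chosen with earlier results of these data known.

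This lean toward lower values depended in part on scaling to total UMIs. The median log2 ratio of all genes was -0.51 in NEVLPcty over CS, -0.77 in NEVLP2 over CS and 0.30 in NEVLPcty over NEVLP2. The 10 most abundant genes took 10.2% of endothelial UMIs in NEVLPcty, 15.1% in NEVLP2 and 7.76% in CS. With size factors from the median of ratios, the shares of genes past 2-fold were 19.3% higher and 24.5% lower in NEVLPcty over CS, and 25.9% and 27.8% in NEVLP2 over CS. They were 7.07% and 11% in NEVLPcty over NEVLP2, 7.9% and 9.59% in CS over naive, 17.2% and 20.1% in NEVLPcty over naive, and 23.7% and 22% in NEVLP2 over naive. On that scale the log2 ratio of Klf2 was -3.75 in NEVLPcty over CS and -4.26 in NEVLP2 over CS, and that of Klf4 -3.27 and -3.13. Thbd was then at 1.86 and 1.70, Edn1 at 2.02 and 4.18, and S1pr1 at 2.05 and 1.995. Nos3 was at 1.06 in NEVLPcty over CS but at -0.11 in NEVLP2 over CS, so its lower level in NEVLP2 was close to the shift of all genes. Between the perfused livers, Nos3 remained at 1.18 and Edn1 at -2.16, whereas Klf4 turned from 0.19 to -0.14.

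By rank, only 0.805% of genes had a lower ratio than Klf2 in NEVLPcty over CS and 0.574% in NEVLP2 over CS. The figures for Klf4 were 1.83% and 3.02%. Nos3 exceeded 82.0% of genes in NEVLPcty over CS and 46.0% in NEVLP2 over CS. Thbd exceeded 92.9% and 87.4%, S1pr1 94.1% and 90.6%, and Edn1 94.0% and 98.1%. Both comparisons use the same CS library, so they are not independent of each other.

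**Figure D2:**
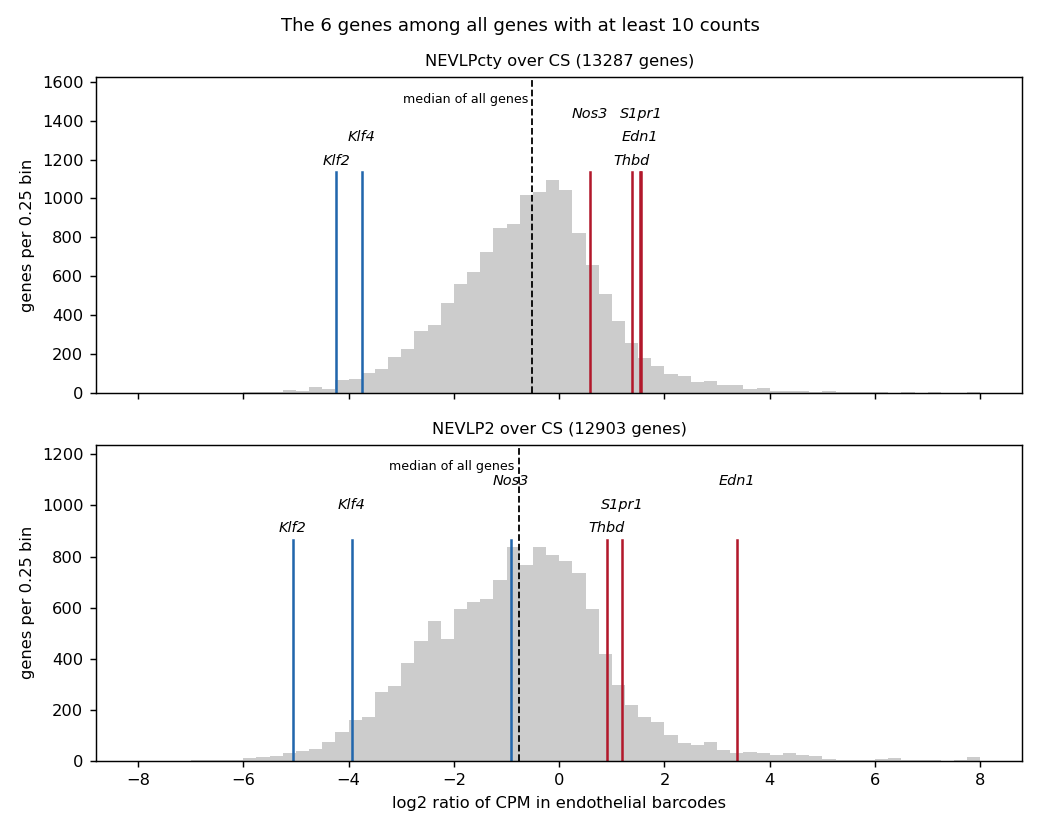
Histogram of log2 ratios of CPM in endothelial barcodes over all genes with at least 10 counts (vertical axis: genes per bin of 0.25), for NEVLPcty over CS above and NEVLP2 over CS below; red lines mark members with a positive ratio, blue lines members with a negative one, and the dashed line is the median of all genes. Ratios beyond the axis are counted in the outermost bins. Klf2 and Klf4 lie in the lower tail of both distributions, and Nos3 lies beside the median only in NEVLP2 over CS (-0.92 against -0.77).

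The share of barcodes with a gene was taken as well. Each barcode was thinned to 2000 UMIs so that depth was equal, which left out 746, 309, 832 and 15 endothelial barcodes in NEVLPcty, NEVLP2, CS and naive. Klf2 was then detected in 1.02% (0.794 to 1.28), 0.662% (0.371 to 1.09), 20.7% (19.5 to 21.9) and 9.09% (1.92 to 24.3) of endothelial barcodes in that order. The naive interval holds the CS share. Unthinned shares were 2.82, 1.75, 39.5 and 20.8%. Hepatocyte barcodes, which should lack Klf2 and show the level of free RNA, had it in 0, 0, 0.622 and 0% after thinning. Their median depth was 1672, 1546, 1712 and 1901 UMIs before thinning, and a count of 0 allows a share of up to 0.940% in NEVLPcty, 0.779% in NEVLP2 and 0.484% in naive. The Klf2 shares of NEVLPcty and NEVLP2 endothelium are therefore both within what a count of 0 allows in hepatocyte barcodes. Their size at this depth is uncertain.

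Klf4 was found in 18.9, 17.5, 78.5 and 45.5% of thinned endothelial barcodes of NEVLPcty, NEVLP2, CS and naive (32.9, 29.7, 83.6 and 50% unthinned), against 1.25, 0.260, 5.81 and 0.645% of hepatocyte barcodes. Klf4 in hepatocyte barcodes was also lower in the perfused libraries, with 6 UMIs in NEVLPcty and 7 in NEVLP2, against 89 in CS. For Thbd the endothelial shares were 73.5, 58.9, 49.8 and 63.6%, against 3.13, 2.08, 2.28 and 0% in hepatocyte barcodes. The naive Thbd share (45.1 to 79.6) holds those of NEVLPcty, NEVLP2 and CS, although by CPM both perfused libraries lay above naive and CS below it. Those of Nos3 were 49.7, 21.3, 38.8 and 48.5%. S1pr1 reached 65.4, 55.0, 33.7 and 27.3%, against 3.45, 2.86, 1.66 and 1.61% in hepatocyte barcodes. Edn1 was found in 1.05, 2.52, 0.402 and 0% of thinned endothelial barcodes. Its 0 of 48 naive barcodes before thinning allows a share of up to 7.40% by the exact interval. Hepatocyte barcodes held no Edn1 UMI in any library.

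**Figure D3:**
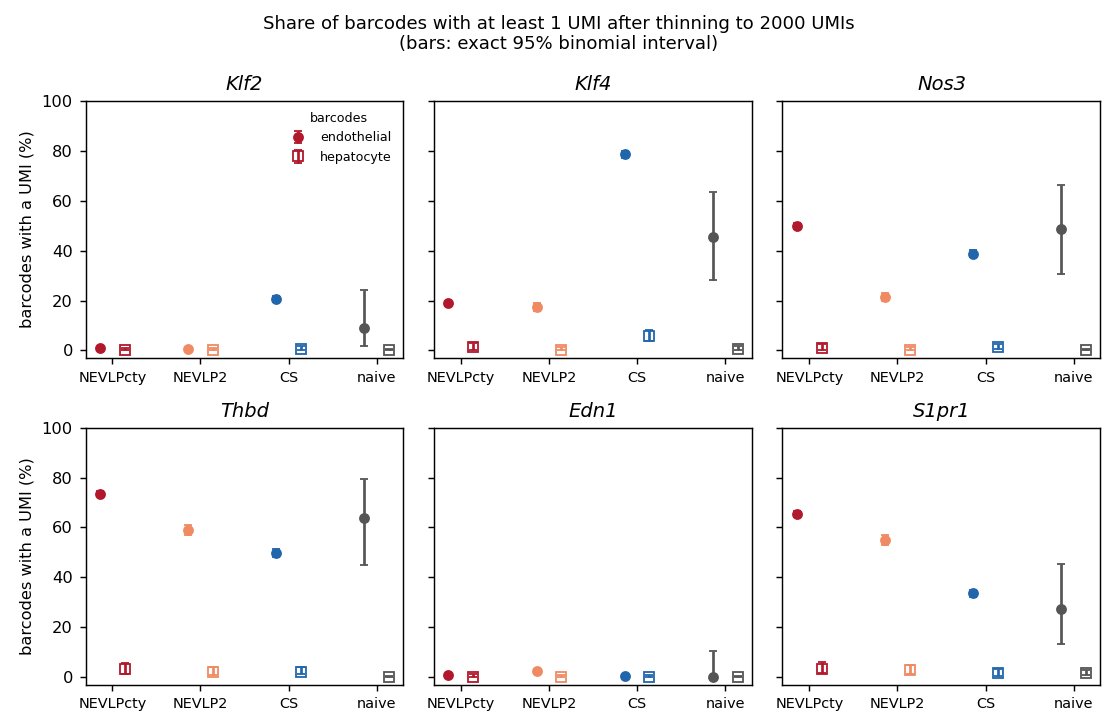
Percent of barcodes with at least 1 UMI of each gene after thinning every barcode to 2000 UMIs, for endothelial barcodes (filled circles) and hepatocyte barcodes (open squares) of NEVLPcty, NEVLP2, CS and naive; bars are exact 95% binomial intervals. Klf4 is detected in 18.9 and 17.5% of perfused endothelial barcodes, against 78.5% in CS, and the hepatocyte background stays below 6% for every gene.

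Within a library, detection of Klf2 and Klf4 went together. Among thinned CS endothelial barcodes, Klf4 was present in 89.5% (87.2 to 91.4) of the 874 with Klf2 and in 75.7% (74.2 to 77.1) of the 3350 without it. The pair of values was 52.9% (40.6 to 64.9) and 18.5% (17.6 to 19.5) in NEVLPcty, and 53.3% (26.6 to 78.7) and 17.3% (15.7 to 18.9) in NEVLP2, where only 15 barcodes held Klf2. Thbd was present in 85.7% (75.3 to 92.9) of NEVLPcty barcodes with Klf2 and 73.4% (72.3 to 74.4) of those without, in 80% and 58.8% in NEVLP2, and in 53.5% (50.2 to 56.9) and 48.8% (47.1 to 50.5) in CS. For Nos3 the values with and without Klf2 were 58.6% and 49.6% in NEVLPcty, 33.3% and 21.2% in NEVLP2, and 40.6% and 38.3% in CS. For S1pr1 they were 62.9% and 65.4% in NEVLPcty, 66.7% and 54.9% in NEVLP2, and 34.2% and 33.6% in CS. Within each library the intervals of Nos3 and S1pr1 overlapped. Those of Thbd overlapped in NEVLP2 (51.9 to 95.7 and 56.7 to 60.8) and in CS, and were apart only in NEVLPcty. Barcodes of 1 library are not replicates, so these intervals describe each library alone.

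Part of the endothelium was then divided, leaving out barcodes with the markers of neither kind or of both. Sinusoidal barcodes (Stab2 or Clec4g and no Vwf) numbered 4406 in NEVLPcty, 1015 in NEVLP2, 3402 in CS and 32 in naive, and vascular barcodes (Vwf and neither of the other genes) 245, 101, 162 and 0. Klf2 had 6.38, 3.94, 117 and 64.0 CPM in sinusoidal barcodes of NEVLPcty, NEVLP2, CS and naive. In vascular barcodes it had 6.16, 5.47 and 100 CPM in NEVLPcty, NEVLP2 and CS, from only 11, 5 and 105 UMIs. The lower Klf2 level of perfused livers was thus present in both kinds of barcode, among those classed. Most of the 2574 endothelial barcodes of NEVLP2 were left out, whereas most of the 5056 of CS were classed. Stab2, a gene of this split, was detected in 36.6% of NEVLP2 and 64.0% of CS endothelial barcodes. Klf4 was 14.1-fold lower in NEVLPcty than in CS and 16.3-fold lower in NEVLP2 than in CS among sinusoidal barcodes, and 8.74-fold and 9.17-fold lower among vascular ones. S1pr1 was higher than in CS by 2.95-fold in NEVLPcty and 2.32-fold in NEVLP2 in sinusoidal barcodes, and by 3.25-fold and 2.15-fold in vascular ones.

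Nos3 and Thbd differed more between the kinds. Nos3 in NEVLP2 was 1.94-fold below CS in sinusoidal barcodes (1.81- to 2.09-fold) but at 0.957 of CS in vascular ones (0.787 to 1.16). Thbd over CS was 2.86 in NEVLPcty and 1.89 in NEVLP2 in sinusoidal barcodes, and 1.52 and 1.25 in vascular barcodes, where its CS level was already 1680 CPM against 666 in sinusoidal ones.

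Edn1 UMIs were concentrated in the few Vwf-positive barcodes, which held most of them in NEVLP2 and CS but not in NEVLPcty. These were 4.43, 4.47 and 4.75% of endothelial barcodes in NEVLPcty, NEVLP2 and CS but held 45.8, 68.8 and 93.8% of the Edn1 UMIs. In them Edn1 had 55.9, 235 and 36.6 CPM, and in the remaining barcodes 4.10, 8.56 and 0.161 CPM. Among sinusoidal barcodes 107 UMIs in NEVLPcty and 63 in NEVLP2 stood against 2 in CS, a ratio of 37.4 (10.1 to 313) for NEVLPcty and 99.9 (26.5 to 843) for NEVLP2. Among vascular barcodes the ratio to CS was 1.28 in NEVLPcty (0.908 to 1.81) and 4.80 in NEVLP2 (3.52 to 6.65). The interval for NEVLPcty vascular barcodes thus includes no difference from CS, and that for NEVLP2 lies above it.

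Klf2 and S1pr1 were next read in lymphocytes, where the pair governs exit from tissue. T barcodes (at least 2 Cd3 genes) numbered 61 in NEVLPcty, 134 in NEVLP2, 101 in CS and 306 in naive. Klf2 had 12.3 CPM in NEVLPcty T barcodes (6 UMIs, 4.52 to 26.8), 5.12 in NEVLP2 (6 UMIs, 1.88 to 11.1), 27.1 in CS (20 UMIs, 16.5 to 41.8) and 33.3 in naive (111 UMIs, 27.4 to 40.1). Relative to CS, Klf2 was 2.20-fold lower in NEVLPcty, with an interval that includes no difference (0.852- to 6.69-fold), and 5.29-fold lower in NEVLP2 (2.05- to 16.1-fold). CS and naive overlapped.

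S1pr1 in perfused T barcodes was not above CS, unlike in endothelium, a difference between cell groups that was not tested. It had 107 CPM in NEVLPcty (79.7 to 140), 70.0 in NEVLP2 (55.6 to 86.8), 131 in CS (107 to 160) and 273 in naive (256 to 291). The untreated liver was highest and NEVLP2 lowest. NEVLPcty was 1.23-fold below CS within counting error (0.870- to 1.76-fold), NEVLP2 was 1.88-fold below CS (1.38- to 2.55-fold), and CS was 2.08-fold below naive (1.68- to 2.59-fold). After thinning to 2000 UMIs, 16.7, 12.8, 22.6 and 36.0% of T barcodes held S1pr1 in NEVLPcty, NEVLP2, CS and naive. Of all genes in T barcodes, 13.8% in NEVLPcty over CS and 13% in NEVLP2 over CS were at least 2-fold lower, and 6.43% were so in CS over naive.

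In B barcodes (27, 69, 192 and 119), Klf2 had 15.3, 7.45, 23.1 and 32.7 CPM in NEVLPcty, NEVLP2, CS and naive, from 3, 4, 23 and 31 UMIs. S1pr1 had 225, 117, 157 and 183 CPM there, and its ratio to CS was 1.43 in NEVLPcty (1.00 to 2.01) and 0.748 in NEVLP2 (0.549 to 1.01). Each direction turned at 1 of the 2 thinning depths: the log2 ratio over CS was 0.52 in NEVLPcty but -0.11 when thinned to 1000 UMIs (4 UMIs, against 30), and -0.42 in NEVLP2 but 0.41 when thinned to 2000 UMIs (25 UMIs, against 53). NK barcodes (299, 297, 198 and 180) had Klf2 at 8.54, 9.31, 15.5 and 17.2 CPM, with intervals that all overlapped. S1pr1 in NK barcodes was 16.2, 6.45, 15.5 and 29.9 CPM, while hepatocyte barcodes of the same libraries had 13.5, 16.7, 7.89 and 9.57 CPM, so in the perfused livers it was near or below that background. By contrast S1pr1 in endothelium was 45.4, 28.5, 26.4 and 16.4 times the hepatocyte level.

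Macrophage barcodes (491, 1290, 1479 and 183) gave a further contrast. Thbd had 127 CPM in NEVLPcty, 91.1 in NEVLP2, 208 in CS and 66.1 in naive, which is 1.63-fold lower in NEVLPcty than in CS (1.51- to 1.77-fold) and 2.28-fold lower in NEVLP2 than in CS (2.15- to 2.42-fold). The direction relative to CS was thus opposite to that in endothelium, and the difference was not tested. Klf4 in macrophages was 2.27-fold lower in NEVLPcty than in CS and 2.45-fold lower in NEVLP2 than in CS, and Klf2 3.28-fold and 2.16-fold lower. At least 2-fold lower values in macrophages were found in 32.2% of genes in NEVLPcty over CS and 33.7% in NEVLP2 over CS. Edn1 had 1 UMI in NEVLPcty macrophages, 30 in NEVLP2 and 0 in CS. NEVLP2 was thus at least 11.5-fold higher than CS, against a limit of 3 counts in CS. The NEVLP2 level was only 1.75 CPM (1.18 to 2.50), and 0 counts in NEVLP2 hepatocyte barcodes allow up to 1.54 CPM. Free RNA as a source was not tested. Nos3 counted 0 to 11 UMIs in any T, NK or B group and Edn1 0 or 1.

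**Figure D4:**
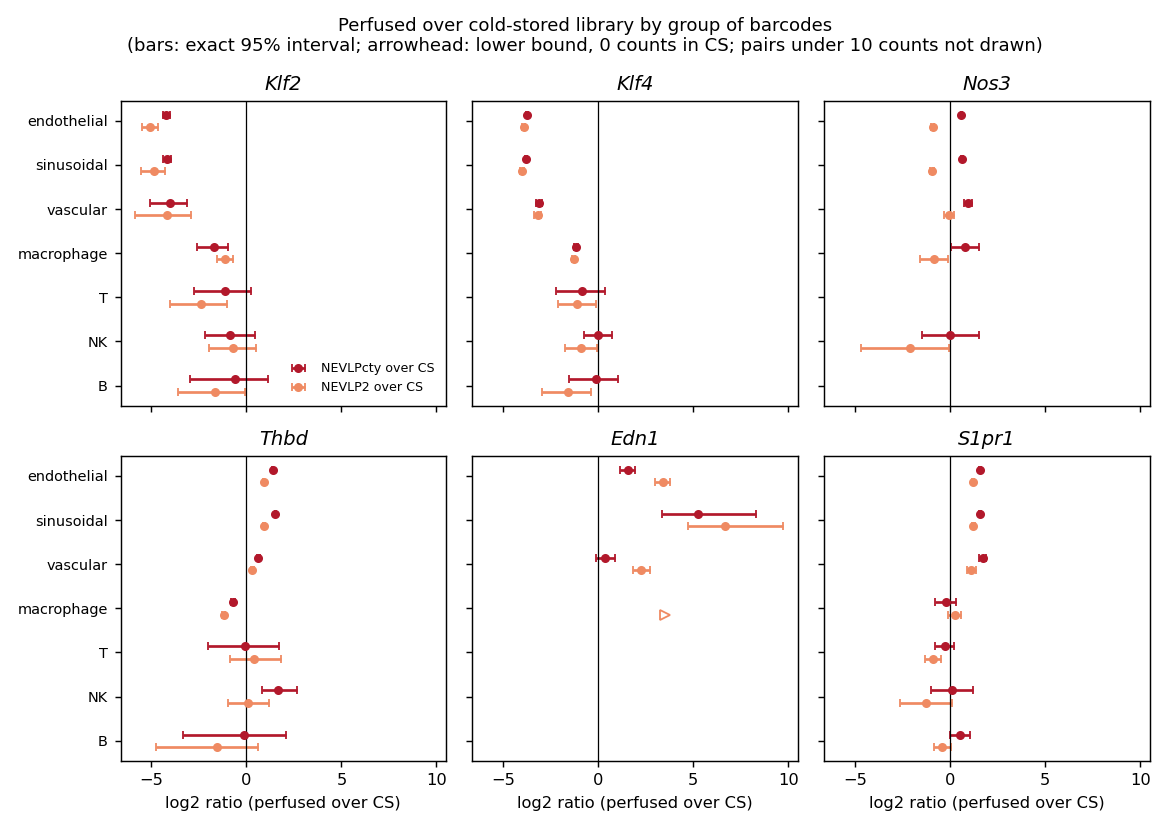
Log2 ratio of CPM over CS for NEVLPcty (dark red) and NEVLP2 (orange) in the groups of barcodes drawn; bars are exact 95% intervals, the arrowhead is a lower bound where CS had 0 counts, and pairs with under 10 counts are not drawn. Klf2 and Klf4 ratios are negative in endothelial, sinusoidal and vascular barcodes, S1pr1 is positive there and at or below 0 in T barcodes, and Thbd is negative in macrophages.

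The relatives and partners of the 6 genes were described from lists, each given as members at least 2-fold higher and lower than CS in endothelial barcodes. Over all genes, 11% were that much higher and 35.9% lower in NEVLPcty over CS, with a median log2 ratio of -0.51, and 11.2% and 44.1% in NEVLP2 over CS, with a median of -0.77. The count and median of each list stand beside these, and none was set apart from them by a test. Among the other KLF factors, 1 of 12 measured was higher and 6 lower in NEVLPcty, and the counts were the same in NEVLP2, with median log2 ratios of -1.04 and -1.09. Klf9, a glucocorticoid-induced factor, had 68.8 CPM in NEVLPcty, 55.8 in NEVLP2 and 375 in CS, and was 5.46-fold lower in NEVLPcty and 6.72-fold lower in NEVLP2. Klf15, likewise induced by glucocorticoids, was 5.95-fold and 6.12-fold lower.

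Of the genes described as raised by laminar flow, 5 of 15 were higher and 6 lower in NEVLPcty, and 4 and 6 of 13 in NEVLP2. Their medians of -0.44 and -0.64 were near the -0.51 and -0.77 of all genes. Hmox1, the haem-degrading oxygenase, was 143-fold higher in NEVLPcty (16957 CPM, against 119 in CS) and 98.0-fold higher in NEVLP2 (11632 CPM). Nqo1, a quinone reductase, was 13.9-fold and 9.24-fold higher. Tek, the angiopoietin receptor TIE2, was 6.73-fold lower in NEVLP2, and Efnb2, an arterial ephrin, was 5.74-fold lower in NEVLPcty.

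Of the genes described as lowered by laminar flow, 5 were higher and 5 lower of 12 in NEVLPcty and 5 and 4 of 12 in NEVLP2 (medians -0.13 and -0.26). The monocyte chemokine Ccl2 was 129-fold higher in NEVLPcty (6589 CPM, against 51.2 in CS) and 409-fold higher in NEVLP2 (20965 CPM). Sele, which encodes E-selectin and tethers leukocytes, was 14.7-fold and 91.1-fold higher. Txnip, which inhibits thioredoxin, was 14.05-fold lower in NEVLPcty and 22.8-fold lower in NEVLP2.

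Upstream of the 2 factors, 1 flow sensor of 11 was higher and 3 lower in NEVLPcty, and 1 and 4 in NEVLP2 (medians -0.09 and -0.85). Plxnd1, a guidance receptor that also senses flow, was 5.68-fold lower in NEVLPcty and 15.5-fold lower in NEVLP2, and P2rx4, an ATP-gated channel, was 6.91-fold and 13.8-fold lower. In the MEK5, ERK5, MEF2 and CCM list, 3 of 14 were higher and 3 lower in NEVLPcty, and 3 and 3 of 13 in NEVLP2 (medians 0.09 and -0.06). Map2k5, which encodes MEK5 itself, had 17.9 CPM in NEVLPcty, 11.5 in NEVLP2 and 84.6 in CS, a level 4.72-fold and 7.33-fold lower. Hdac7, a repressor of MEF2 factors, was 4.61-fold and 13.4-fold lower.

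Around Nos3, 5 nitric oxide genes of 13 were higher and 4 lower in each perfused library (medians 0.30 in NEVLPcty and 0.05 in NEVLP2). Slc7a1, the arginine transporter, was 14.9-fold higher in NEVLPcty and 14.01-fold higher in NEVLP2. Gch1, which makes the cofactor tetrahydrobiopterin, was 4.05-fold and 9.49-fold higher. Cav1, a caveolar protein that restrains the enzyme, was 7.97-fold lower in NEVLPcty. Beside Thbd, the protein C list had 1 of 5 higher and 0 lower in NEVLPcty and 1 and 1 in NEVLP2 (medians -0.38 and 0.53). Its higher member in both was Procr, the endothelial protein C receptor, with 1388 CPM in NEVLPcty, 1315 in NEVLP2 and 166 in CS.

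Of 7 endothelin genes other than Edn1, 3 could be measured in NEVLPcty over CS, with 2 higher and 0 lower, and 2 in NEVLP2 over CS, with 1 higher and 1 lower (medians 1.58 and 0.34). The sphingosine 1-phosphate list had 3 higher and 2 lower of 12 in NEVLPcty and 2 and 2 in NEVLP2 (medians -0.30 and 0.14). Sphk1, a kinase that makes the ligand, was 71.5-fold higher in NEVLPcty (27.7 to 263) and 130-fold higher in NEVLP2 (50.4 to 482) over only 4 UMIs in CS. Sgpl1, the lyase that degrades it, was 11.1-fold and 6.86-fold higher, and Spns2, its endothelial exporter, was 6.25-fold lower in NEVLP2.

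Genes whose pattern was most like each member were ranked by Pearson r of log2(CPM + 5) over 24 sums (6 cell groups in 4 libraries) among 12962 genes. The sums share libraries and depth, so r is a description. Nos3 was most like Ptprb (r 0.986), Sox17 (0.985) and Podxl (0.983), and Thbd most like Cdh5 (0.977), Lrg1 (0.975) and Plk2 (0.971). Edn1 ran closest to Igfbp5 (0.981), Psors1c2 (0.979) and Tslp (0.974). Klf4 had Tmem106a (0.918), Coprs (0.902) and the immediate early gene Dusp1 (0.894) nearest, and Klf2 had Trappc2 (0.900), Add1 (0.892) and Thumpd2 (0.883). S1pr1 had the weakest best matches: Tnfrsf26 (0.851), Ldhb (0.834) and Rbsn (0.828).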

How the data were processed

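Single-cell RNA was measured in 4 rat liver libraries with the 10x Genomics platform. The authors deposited filtered matrices of UMI counts per gene and barcode, made with Cell Ranger, per the labels' protocols. The version was 2.1.1 per the submitters' processing notes and 6.0.0 per the file headers, and the genome build was not given in the sources used here. The 22250 features carry 22118 symbols, and the 132 features that repeat a symbol were summed with it. Barcodes under 200 genes or under 500 UMIs were dropped, as were those over 20% mitochondrial UMIs. Cell groups were set by marker rules: T (at least 2 of Cd3d, Cd3e, Cd3g), NK (at least 3 of 6 markers, no Cd3), B (at least 2 markers), macrophage (at least 3 of 8) and hepatocyte (at least 10% of UMIs from 12 genes). T, NK and B barcodes also had none of Flt1, Egfl7 and Kdr, and the other groups had under 2 of them. A barcode that met 2 of these rules was left out. Endothelial barcodes were not screened for markers of other groups beyond Ptprc, and no doublet caller was run. A stellate rule gave 0 to 5 barcodes a library and was not used.

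Raw counts were summed per library and cell group and divided by the total, giving CPM with exact 95% Poisson intervals. CPM ratios have exact conditional binomial intervals and shares Clopper-Pearson intervals. PCR and capture errors are not in them. A side with 0 counts was set to 3 counts and the ratio given as a bound. Ratios over all genes used genes with at least 10 counts in the pair of sums, and the ratio code was tested on simulated counts. The members and gene lists were chosen with earlier results of these data known. List genes qualified where at least 4-fold from CS in either perfused library with at least 30 counts, at most 5 a list and contrast. Only some of these genes are named in the text. The 3 most alike genes per member were named as well. Fos, 1 immediate early gene, was chosen after its values were seen. Software was scipy 1.17.1, numpy 2.4.6 and pandas 2.3.3 under Python 3.11.15, with matplotlib 3.10.9 for plots. Alternatives covered barcode filters, the endothelial rule, scaling, thinning to 2000 and 1000 UMIs, and subtracting the hepatocyte level, the last added after seeing the data.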

Additional observations from a re-analysis of the deposited data

Results flagged for a closer look

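Several members moved in opposite directions in endothelial barcodes and in another cell group under the same contrast, with both counting intervals clear of no change. None of these differences between cell groups was tested. Thbd in macrophages had log2 ratios of -0.707 in NEVLPcty over CS and -1.19 in NEVLP2 over CS, against 1.38 and 0.900 in endothelial barcodes. In CS over naive, Thbd was at 1.66 in macrophages and -0.271 in endothelial barcodes. There 1 naive barcode held 39.3% of the Thbd UMIs, and without the barcodes in the top 5% of UMIs the endothelial value was 0.18, so the directions were then no longer opposite. S1pr1 in NEVLP2 over CS was at -0.909 in T barcodes and 1.19 in endothelial barcodes. Klf4 in CS over naive was at -0.928 in T barcodes and -1.69 in B barcodes, where 39 UMIs in CS stood against 120 in naive, and at 1.83 in endothelial barcodes. Klf2 in CS over naive was at -0.919 in macrophages and 0.864 in endothelial barcodes, where naive held 15 UMIs.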

How the results depend on the processing

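No paired analysis was possible because each group is 1 library. Over 9 to 13 alternatives a contrast, no endothelial member ratio of at least 2-fold changed sign. Smaller ones did. Klf2 in NEVLPcty over NEVLP2 turned from 0.83 to -0.35 when thinned to 1000 UMIs. The others were Klf4 in NEVLPcty over NEVLP2 (-0.14 with size factors), Nos3 in NEVLPcty over naive (-0.02 at the lowest) and Thbd in CS over naive (0.18 without the top 5% of UMIs). The log2 ratio of Klf2 stayed between -4.77 and -3.75 in NEVLPcty over CS and between -5.12 and -4.20 in NEVLP2 over CS, and that of Klf4 between -3.82 and -3.13 and between -4.07 and -3.13. Nos3 in NEVLP2 over CS ran from -1.01 to -0.06, and Edn1 there from 2.26 to 6.64. The count of members at least 2-fold higher became 2 in CS over naive when thinned to 2000 or to 1000 UMIs. In NEVLP2 over naive it became 2 with no barcode filter, 2 without the top 5% of UMIs and 3 with size factors. In NEVLPcty over naive it became 1 with all 3 rule genes, with at most 10% mitochondrial UMIs and in sinusoidal barcodes. With size factors it was 4 in NEVLPcty over CS and 3 in NEVLP2 over CS. In vascular barcodes it was 1 in NEVLPcty over CS and 0 in NEVLPcty over NEVLP2. The count at least 2-fold lower was 3 in NEVLP2 over CS when thinned to 2000 UMIs, and in CS over naive became 1 after subtracting the hepatocyte level, an alternative chosen after seeing the data. In NEVLP2 over naive it was 2 at the lowest, against 3, and Nos3 there ran from -1.55 to -0.42. Thinned to 1000 UMIs, the S1pr1 log2 ratio in T barcodes was -1.55 in NEVLPcty over CS (6 UMIs, against 27) and -2.94 in NEVLP2 over CS (5 UMIs, against 27), and that of endothelial Klf2 in NEVLPcty over NEVLP2 was -0.35 (33 UMIs, against 14). The cause of these shifts was not tested, beyond the fewer UMIs that thinning leaves. Thinned T barcodes held too few Klf2 UMIs for a ratio over CS. Depth is thin in naive endothelium (48 barcodes, 15 Klf2 UMIs) and in lymphocytes, where Klf2 rests on 3 to 111 UMIs and NEVLPcty holds 27 B barcodes.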
